A study of Mus musculus with 7 samples.

Results

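The TCA cycle enzymes described here are 9 nuclear genes, *Cs*, *Idh3a*, *Idh3b*, *Idh3g*, *Ogdh*, *Dlst*, *Suclg1*, *Fh1* and *Mdh2*. They were taken by symbol from the table of liver gene counts, which holds 23347 genes, and all 9 were found and had enough counts to be tested. RNA came from whole livers of 7 male mice on a C57BL/6 background, 1 library per liver. All had been fed the CDAHFD, a high-fat diet without choline and with amino acids in place of protein, which brings on fatty liver disease in mice, for 15 weeks, and the labels give no age. The 4 control livers are labelled WT and were littermates carrying *B4galt1* flanked by recombination sites, written *B4galt1* flox/flox below. The 3 livers labelled B4-HKO came from mice that carry the same floxed gene together with *Alb-Cre*, a Cre recombinase under the albumin promoter. It acts in hepatocytes and leaves *B4galt1* in the other cells of the liver. The mice of this group had the gene removed in hepatocytes by design. These livers are written *B4galt1* hep-/- below. Both groups thus share the floxed allele and the diet, and chow-fed animals are not analysed here.

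The TCA cycle runs in the mitochondrial matrix and burns the acetyl group of acetyl-CoA to carbon dioxide, passing the electrons to NAD and FAD for the respiratory chain. Citrate synthase joins acetyl-CoA to oxaloacetate, isocitrate dehydrogenase and the alpha-ketoglutarate dehydrogenase complex release carbon dioxide and make NADH, succinyl-CoA ligase makes GTP or ATP, and fumarase and malate dehydrogenase restore oxaloacetate. In the liver the cycle also gives up intermediates, as citrate leaves for fatty acid synthesis and malate or aspartate for glucose synthesis and the urea cycle, so that enzymes feeding carbon back into it, such as pyruvate carboxylase, are abundant in hepatocytes. All of its enzymes are encoded in the nucleus and imported.

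Total counts ranged from 37838654 to 39668509 in flox/flox livers and from 30608271 to 34586588 in hep-/- livers, at which depth 3 counts correspond to between 0.0690 and 0.0987 CPM, counts scaled to a common library size. *B4galt1*, the targeted gene (NCBI gene 14595), was at 48.7, 53.0, 49.2 and 51.6 CPM in flox/flox replicates 1 to 4. In the libraries labelled hep-/- it was at 28.4 and 23.9 CPM in replicates 1 and 2 but at 53.7 CPM in replicate 3, above every flox/flox liver on this TMM-normalized scale. On the deposited FPKM, which are divided by gene length and library total, the order turned, with 11.9 in replicate 3 just below the flox/flox range of 12.2 to 14.0. On both scales replicate 3 lay near the flox/flox livers and away from replicates 1 and 2, which were at 6.47 and 6.52 FPKM. The library labelled hep-/- replicate 3 thus did not show the lower *B4galt1* of the other 2, hep-/- is used throughout as the name of the label, and the results for the enzymes, and the counts of the related lists that it moves, are also given without this liver. Over the group *B4galt1* had a log2 fold change of -0.52 (SE 0.26; adjusted p = 0.181, edgeR quasi-likelihood, Benjamini-Hochberg). Without replicate 3 it was -0.96 (adjusted p = 0.0139, same test). Transcripts encoded in the mitochondrial genome took 5.47%, 5.83%, 3.88% and 8.00% of the counts in the flox/flox livers and 22.6%, 22.1% and 14.4% in the hep-/- livers.

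The upstream sequences of the enzymes are given here beside the log2 fold changes described further on. RefSeq windows on GRCm38.p6 were found for 8 of the 9 genes; *Idh3a* is the missing one. Those of 4 genes are printed, *Suclg1*, which was called lower, *Mdh2* and *Ogdh*, which had the next lowest log2 fold changes and were not called, and *Cs*, whose log2 fold change was nearest to 0. Each is the 250 bases before the annotated start, 5′ to 3′ on the gene's own strand, which is the plus strand for all 4, with matches to the searched motifs in capitals. *Suclg1* lies at chr6:73248255-73248504, *Mdh2* at chr5:135778399-135778648, *Ogdh* at chr11:6291347-6291596 (the first listed of its 6 windows) and *Cs* at chr10:128337477-128337726.
Suclg1: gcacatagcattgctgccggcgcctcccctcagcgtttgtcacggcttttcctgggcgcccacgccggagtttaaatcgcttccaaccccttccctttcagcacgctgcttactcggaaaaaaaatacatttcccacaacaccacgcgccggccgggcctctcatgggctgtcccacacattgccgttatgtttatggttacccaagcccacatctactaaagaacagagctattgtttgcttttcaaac
Mdh2: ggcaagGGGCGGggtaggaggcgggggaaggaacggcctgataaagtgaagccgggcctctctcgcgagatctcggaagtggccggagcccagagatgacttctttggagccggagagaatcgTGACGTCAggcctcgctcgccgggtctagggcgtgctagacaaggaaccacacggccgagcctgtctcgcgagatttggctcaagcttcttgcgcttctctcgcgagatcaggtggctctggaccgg
Ogdh: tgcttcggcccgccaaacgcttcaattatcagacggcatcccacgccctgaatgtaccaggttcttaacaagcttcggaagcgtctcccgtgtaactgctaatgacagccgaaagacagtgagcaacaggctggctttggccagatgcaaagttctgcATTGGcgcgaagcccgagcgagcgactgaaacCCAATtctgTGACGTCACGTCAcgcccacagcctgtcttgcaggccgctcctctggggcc
Cs: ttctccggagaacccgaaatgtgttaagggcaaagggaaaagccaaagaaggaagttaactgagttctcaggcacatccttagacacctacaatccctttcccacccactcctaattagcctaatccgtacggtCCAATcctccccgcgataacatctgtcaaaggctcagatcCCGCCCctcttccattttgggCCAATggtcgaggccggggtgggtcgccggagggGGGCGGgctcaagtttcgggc

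The motifs were searched on both strands, and a CRE half-site match may overlap its own reverse complement. The *Suclg1* window held none of them. *Mdh2* held a GC box (GGGCGG) and a pair of opposed CRE half-sites (TGACGT) that overlap as TGACGTCA. *Ogdh* held the same overlapping pair with a further reverse half-site that begins on its last base, and 2 CCAAT boxes (CCAAT) upstream. In *Cs* there were 2 CCAAT boxes and 2 GC boxes. Over all 8 windows, 4 held a CCAAT box, against 34.5% of the windows of 27025 genes, and 4 held a GC box, against 32.9%. The CRE half-site was in 3 windows, those of *Idh3g*, *Mdh2* and *Ogdh*, against 6.56% of all genes, and an ETS motif (CCGGAAG) was in 1, that of *Idh3g*, against 7.05%. None of the 8 held TATAAA (13.0% of all genes), the NRF1 motif (3.86%) or the ERR motif TNAAGGTCA (1.14%). GC content ran from 46.8% to 64.8%, beside a median of 52% over all genes. These matches describe letters in a window and were not tested against the expression values.

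To ask whether hepatocyte deletion of *B4galt1* went with a different level of the enzymes, counts were compared between the 3 hep-/- and the 4 flox/flox livers. Calls required an adjusted p under 0.05 and a log2 fold change beyond 0.58 in either direction. Of the 9 enzymes 1 fell, *Suclg1*, none rose, and 8 were not called. Over all 15179 genes tested, 7.83% were called lower and 8.00% higher, so 1 of 9, or 11.1%, is near the background. Among the 1869 genes expressed at least as highly as the lowest member 15.6% were called lower and 6.58% higher. The log2 fold change was below 0 for 8 of the 9, against 48.7% of all genes, with a median of -0.34 beside 0.021 over all genes. These are genes of every level, while the equally expressed genes were called lower more often than higher. Values did not overlap between the groups for 3 members, *Idh3b*, *Ogdh* and *Suclg1*, all lower in hep-/- livers. That pattern was found in 15.0% of all genes and in 26.3% of the equally expressed ones. On FPKM, *Dlst* and *Mdh2* did not overlap either, which made 5 of 9, beside 21.2% of all genes. Without hep-/- replicate 3 the calls were *Suclg1* and *Mdh2*, 2 of 9, beside 7.51% of all genes called lower, all 9 log2 fold changes were below 0 and the median was -0.48. On other scales 3 of 9 were called lower, *Ogdh*, *Suclg1* and *Mdh2*, beside larger or smaller shares of all genes. These shares were 11.7% with library totals in place of TMM, 15.9% and 17.8% with limma on FPKM with pseudocounts of 1 and 0.1, and 4.74% with limma on every gene above 0. With voom and quality weights *Suclg1* and *Mdh2* were called, beside 9.53%.

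**Figure D1:**
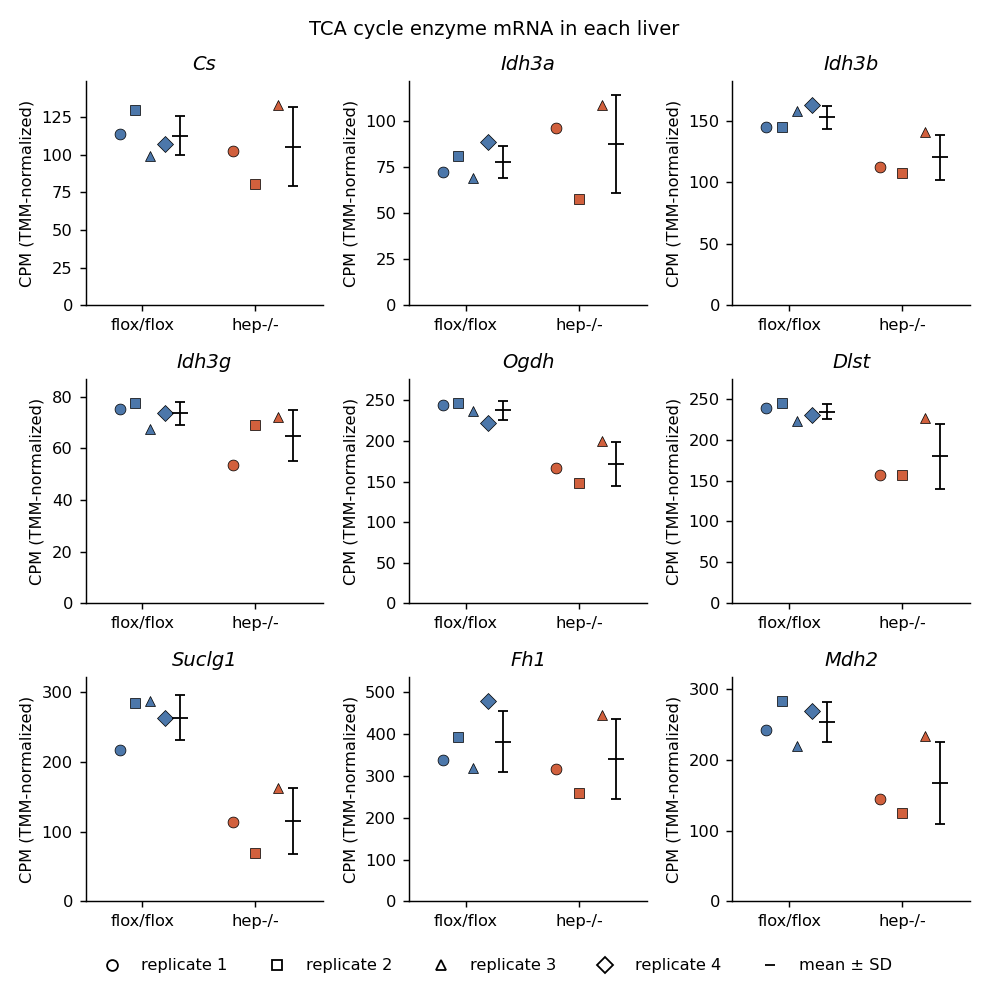
CPM (TMM-normalized, linear axes from 0) of the 9 enzymes in each liver, 4 flox/flox in blue and 3 hep-/- in orange, with marker shapes for the replicate number and mean ± SD beside each group. In *Suclg1* the hep-/- livers sit between 69.2 and 163 CPM, all under the flox/flox livers, while in *Cs*, *Idh3a* and *Fh1* hep-/- replicate 3 lies among or above them.

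*Cs* (NCBI gene 12974) encodes citrate synthase, the entry step. It was at 114, 129.7, 99.3 and 107 CPM in flox/flox replicates 1 to 4 and at 102, 80.7 and 133 CPM in hep-/- replicates 1 to 3. The hep-/- livers held both the lowest and the highest value, and the groups overlapped. Flox/flox livers averaged 112 ± 13.0 CPM (SD, n = 4) and the hep-/- mean was 105 ± 26.2 CPM (SD, n = 3). The log2 fold change was -0.10 (SE 0.21; adjusted p = 0.780, edgeR quasi-likelihood, Benjamini-Hochberg). The sign of this difference turned without hep-/- replicate 2, to 0.062, while without replicate 3 it was -0.31 (adjusted p = 0.337, same test).

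NAD-dependent isocitrate dehydrogenase is built from a catalytic alpha subunit and the beta and gamma subunits, and its 3 genes differed in their values. *Idh3a* (NCBI gene 67834), the alpha subunit, was at 72.3, 80.9, 69.3 and 88.3 CPM in flox/flox livers and at 96.2, 57.4 and 108 CPM in hep-/- livers. As for *Cs*, hep-/- livers gave the lowest and the highest value. Its log2 fold change was 0.17 (SE 0.23; adjusted p = 0.638, edgeR quasi-likelihood, Benjamini-Hochberg), the only one of the 9 above 0, and it was -0.025 without hep-/- replicate 3 and -0.000781 on log2(FPKM + 1).

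*Idh3b* (NCBI gene 170718), the beta subunit, was at 145, 145, 158 and 163 CPM in flox/flox livers and at 113, 107 and 141 CPM in hep-/- livers. Every hep-/- liver was lower than every flox/flox liver, although replicate 3 came close to them. The difference, 153 ± 9.13 CPM (SD, n = 4) against 120.4 ± 18.2 CPM (SD, n = 3), gave a log2 fold change of -0.34 (SE 0.18; adjusted p = 0.216, edgeR quasi-likelihood, Benjamini-Hochberg) and was not called in any of 19 alternative analyses. Leaving out replicate 3 gave -0.48 (adjusted p = 0.115, same test).

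*Idh3g* (NCBI gene 15929), the gamma subunit, was at 75.4, 77.5, 67.3 and 73.7 CPM in flox/flox livers and at 53.7, 68.9 and 72.1 CPM in hep-/- livers. Here replicate 1 was the low liver of the hep-/- group and the other 2 lay within the flox/flox range. The log2 fold change was -0.18 (SE 0.18; adjusted p = 0.516, edgeR quasi-likelihood, Benjamini-Hochberg), and -0.27 without replicate 3 (adjusted p = 0.365, same test).

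The alpha-ketoglutarate dehydrogenase complex is represented by *Ogdh*, its thiamine-dependent first component, and *Dlst*, the lipoyl-bearing succinyltransferase core. *Ogdh* (NCBI gene 18293) was at 245, 247, 237 and 222 CPM in flox/flox livers and at 167, 148 and 200.4 CPM in hep-/- livers. The groups did not overlap. Its log2 fold change was -0.47 (SE 0.19; adjusted p = 0.107, edgeR quasi-likelihood, Benjamini-Hochberg), short of both thresholds. Without TMM scaling it was -0.61 and called (adjusted p = 0.0290, same test), and it was also called in the 3 limma analyses of FPKM. Leaving out hep-/- replicate 3 gave -0.60, which was not called (adjusted p = 0.0663, edgeR quasi-likelihood, Benjamini-Hochberg).

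*Dlst* (NCBI gene 78920) was at 239, 245, 223 and 230.0 CPM in flox/flox livers and at 156, 156 and 226 CPM in hep-/- livers. The first 2 hep-/- replicates were well under the flox/flox range and replicate 3 was inside it. The log2 fold change was -0.38 (SE 0.20; adjusted p = 0.203, edgeR quasi-likelihood, Benjamini-Hochberg), and -0.59 without replicate 3 (adjusted p = 0.0656).

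*Suclg1* (NCBI gene 56451) encodes the alpha subunit of succinyl-CoA ligase, which pairs with either a GTP-forming or an ATP-forming beta subunit. It was at 217, 285, 287 and 263 CPM in flox/flox livers and at 113, 69.2 and 163 CPM in hep-/- livers. All hep-/- livers lay below all flox/flox livers, with replicate 2 the lowest and replicate 3 the nearest to the controls. The flox/flox mean was 263 ± 32.3 CPM (SD, n = 4), and *Suclg1* fell to 43.8% of it, or 115 ± 47.0 CPM (SD, n = 3), in hep-/- livers. Its log2 fold change was -1.19 (SE 0.27; adjusted p = 0.0168, edgeR quasi-likelihood, Benjamini-Hochberg), and 3.56% of the tested genes had a lower one. The call was kept in all 19 alternatives, with log2 fold changes from -1.53 to -0.93, and the lowest of these was that without hep-/- replicate 3 (adjusted p = 0.00907).

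*Fh1* (NCBI gene 14194) encodes fumarase, which hydrates fumarate to malate. It was at 337, 393, 318 and 479 CPM in flox/flox livers and at 315, 259 and 444 CPM in hep-/- livers. The spread was wide in both groups and they overlapped, the log2 fold change being -0.17 (SE 0.24; adjusted p = 0.656, edgeR quasi-likelihood, Benjamini-Hochberg). With single livers left out it ran from -0.42 to -0.0077. The lowest was that without hep-/- replicate 3 (adjusted p = 0.247, same test).

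*Mdh2* (NCBI gene 17448), the mitochondrial malate dehydrogenase, was at 243, 284, 220.2 and 270.1 CPM in flox/flox livers and at 145, 125 and 234 CPM in hep-/- livers. Replicates 1 and 2 of the hep-/- livers were under every control, and replicate 3 was above the lowest of them. The log2 fold change was -0.60 (SE 0.24; adjusted p = 0.107, edgeR quasi-likelihood, Benjamini-Hochberg), past the fold threshold but not the p threshold. Without hep-/- replicate 3 it was -0.92 and was called (adjusted p = 0.0226, same test). *Mdh2* was called in 6 of the 19 alternatives.

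**Figure D2:**
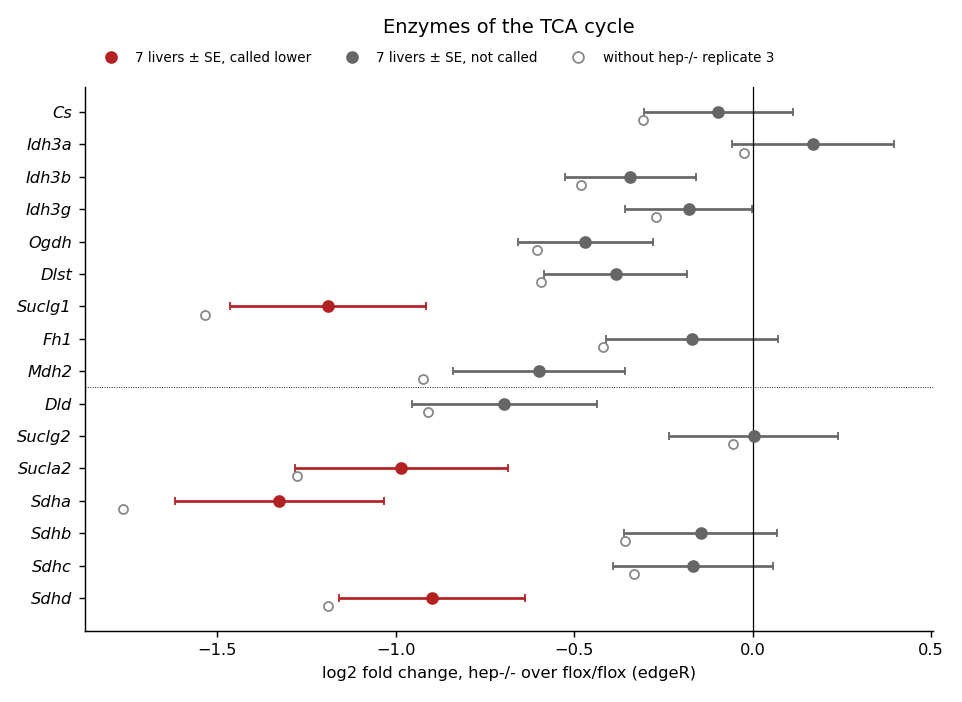
Log2 fold change of hep-/- over flox/flox livers for the 9 enzymes (above the dotted line) and 7 other enzymes of the cycle (below it), as points with standard errors from edgeR over 7 livers, red where called lower, and as open circles without hep-/- replicate 3. *Suclg1* at -1.19 stands apart from the other 8 members, which lie between -0.60 and 0.17, and all open circles are to the left of 0.

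The members varied together from liver to liver. On the TMM-normalized scale, replicate 2 of the hep-/- livers was the lowest of all 7 livers for 8 of the 9 enzymes, the exception being *Idh3g*, which was lowest in replicate 1. Replicate 3 was above its group's mean for every enzyme and was the highest liver of all for *Cs* and *Idh3a*. On FPKM the lowest liver was hep-/- replicate 1 for 5 members and replicate 2 for 4, and replicate 3 was the highest for *Idh3a* alone. After each group's mean was subtracted, the 36 pairs of members had a median Pearson r of 0.76 over 7 livers, with a range from -0.082 to 0.94. The 2 pairs below 0 both held *Idh3g*, with *Idh3a* and with *Suclg1*. All pairs share the same 7 libraries and their scaling, so these correlations are a description. No r of other gene pairs is given beside them. The order of the hep-/- livers was not particular to the members. Mean log2 CPM in replicates 1 to 3 was 7.12, 6.54 and 7.55 for the other cycle enzymes. It was 6.41, 5.87 and 6.64 for the import and chaperone genes and 8.15, 7.48 and 8.30 for fatty acid oxidation.

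Per unit of length, in FPKM, the order of the levels in flox/flox livers was *Fh1* (241), *Mdh2* (205), *Suclg1* (196), *Idh3b* (104), *Dlst* (87.7), *Idh3g* (54.1), *Cs* (39.2), *Idh3a* (33.4) and *Ogdh* (32.3), given as means. The highest was 7.45 times the lowest. The flox/flox livers of *Fh1* overlapped those of *Mdh2*, and *Mdh2* overlapped *Suclg1*, *Idh3b* overlapped *Dlst*, and *Cs*, *Idh3a* and *Ogdh* overlapped in sequence, while *Suclg1* stood clear of *Idh3b*, *Dlst* of *Idh3g* and *Idh3g* of *Cs*. In hep-/- livers the order was the same except that *Idh3a* (33.9) and *Cs* (33.2) changed places within their spread. There *Fh1* stood clear of *Mdh2* and *Cs* of *Ogdh*. *Suclg1* (76.9) came to overlap *Idh3b* (75.0), *Dlst* came to overlap *Idh3g*, and *Idh3g* overlapped *Idh3a*, the gene next below it. By mean level over all livers the 9 genes lay between percentiles 87.7 and 98.1 of the genes tested.

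Summed over the 9 enzymes, FPKM was 1013, 1019, 969 and 970 in flox/flox livers and 589, 598 and 803 in hep-/- livers. The groups did not overlap on this scale, with means of 993 ± 26.7 (SD, n = 4) and 663 ± 121 (SD, n = 3). FPKM is divided by a total that includes the mitochondrially encoded transcripts, whose share was higher in every hep-/- liver. As a share of the nuclear counts alone the sum was 0.197% ± 0.00710 (SD, n = 4) and 0.158% ± 0.0166 (SD, n = 3), a smaller gap. The groups did not overlap on this share either, with a lowest flox/flox value of 0.189% and a highest hep-/- value of 0.177%. On the TMM-normalized scale the summed CPM ran from 1680 to 1896 in flox/flox livers and from 1071 to 1722 in hep-/- livers, where replicate 3 overlapped the controls.

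**Figure D3:**
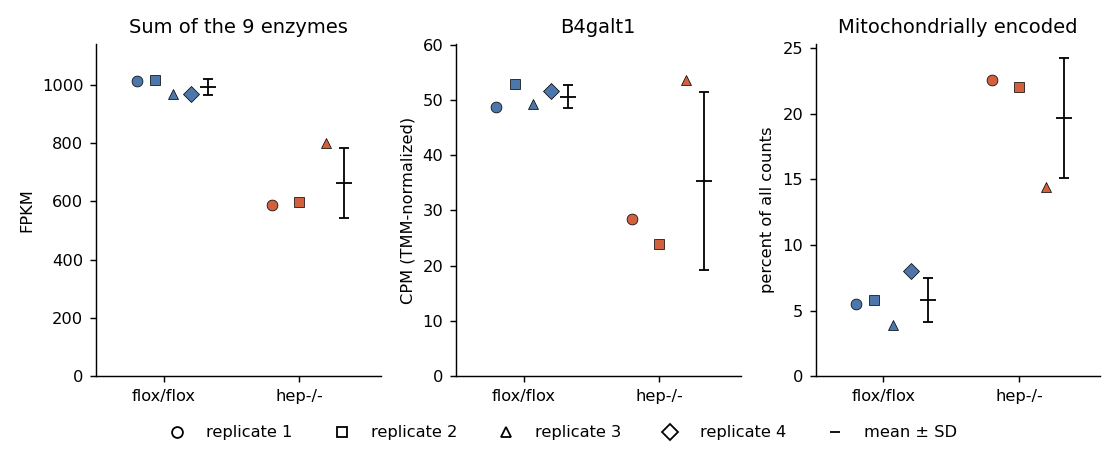
Summed FPKM of the 9 enzymes, CPM of *B4galt1* and the percentage of counts from mitochondrially encoded genes in each liver (linear axes from 0; 4 flox/flox, 3 hep-/-; mean ± SD beside the points). Hep-/- replicate 3, at 53.7 CPM of *B4galt1*, also had the highest enzyme sum (803 FPKM) and the lowest mitochondrially encoded share (14.4%) of its group.

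Subunits of 1 enzyme can be compared within a library as a ratio of FPKM, on which library scaling has no effect. The ratio of *Idh3b* to *Idh3a* was 3.16, 2.84, 3.61 and 2.91 in flox/flox livers and 1.85, 2.96 and 2.06 in hep-/- livers. Replicates 1 and 3 of the hep-/- livers were lower than all controls and replicate 2 was not. The difference in mean log2 ratio was -0.48 (two-sided exact permutation test, p = 0.171, adjusted p = 0.4 over the 3 ratios tested, where 4 against 3 livers cannot go below 0.0286).

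The ratio of *Idh3g* to *Idh3a* was 1.77, 1.63, 1.65 and 1.42 in flox/flox livers and 0.950, 2.04 and 1.13 in hep-/- livers, which lay on both sides of the controls. Its difference was -0.31 on the log2 scale (two-sided exact permutation test, p = 0.286, adjusted p = 0.4). *Dlst* to *Ogdh* was the steadiest, at 2.69, 2.74, 2.60 and 2.86 against 2.59, 2.92 and 3.11, with a log2 difference of 0.073 (two-sided exact permutation test, p = 0.4, adjusted p = 0.4). None of the 3 ratios differed by more than the test could tell from the spread between livers.

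A further 3 ratios were computed after the values had been seen and are given without a test. *Suclg1* to *Suclg2*, the GTP-forming beta subunit, was 2.95, 2.68, 2.64 and 2.25 in flox/flox livers and 0.927, 0.939 and 1.51 in hep-/- livers, with no overlap. *Suclg1* to *Sucla2*, the ATP-forming beta subunit, was 4.45, 4.29, 4.18 and 3.92 against 3.15, 4.31 and 3.78, and the groups overlapped. *Sdha* to *Sdhb*, the flavoprotein and iron-sulfur subunits of succinate dehydrogenase, was 0.753, 0.819, 0.892 and 0.599 against 0.315, 0.250 and 0.400.

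**Figure D4:**
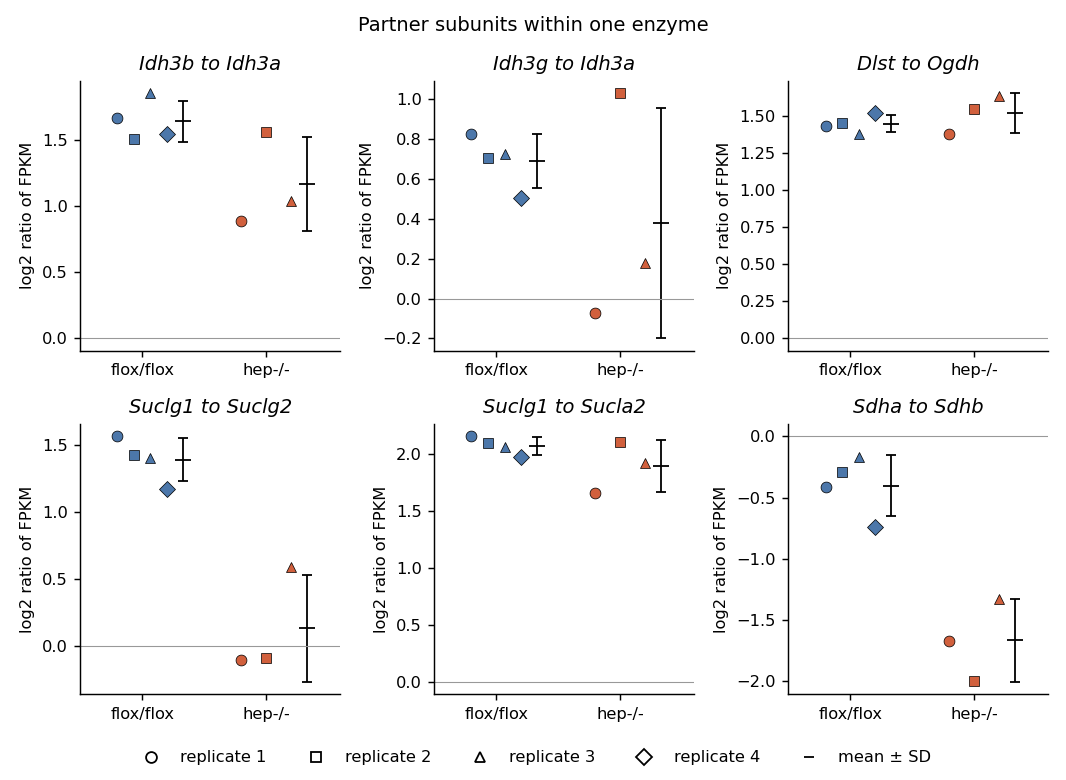
Log2 ratio of FPKM between partner subunits in each liver (the grey line marks equal FPKM; mean ± SD beside the points; 4 flox/flox, 3 hep-/-), with the 3 tested ratios in the upper row and the 3 chosen after seeing the values in the lower row. *Suclg1* to *Suclg2* and *Sdha* to *Sdhb* do not overlap between the groups, and the other 4 ratios overlap.

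The cycle's remaining enzymes, 8 genes, were read beside the members. Of these 3 fell, *Sucla2*, *Sdha* and *Sdhd*, none rose, and the median log2 fold change was -0.51. The count was 4 without hep-/- replicate 3, 3 without flox/flox replicate 1 and 1 without any other liver, beside 7.83% of all genes called lower over 7 livers and 15.6% of those expressed at least as highly as the lowest member. In the analyses without a liver the share of all genes called lower ran from 3.16% to 7.51%. *Sdha* was at 332, 382, 419 and 358 CPM in flox/flox livers and 132, 88.4 and 225 CPM in hep-/- livers, without overlap, and had a log2 fold change of -1.33 (SE 0.29; adjusted p = 0.0141, edgeR quasi-likelihood, Benjamini-Hochberg). *Sucla2* had -0.98 (SE 0.30; adjusted p = 0.0452) and *Sdhd*, a membrane anchor of succinate dehydrogenase, -0.90 (SE 0.26; adjusted p = 0.0386, same test), and each lost its call in 5 of the 7 analyses that left out a liver. The partner of *Suclg1* in GTP formation, *Suclg2*, was at 199, 287, 294 and 316 CPM in flox/flox livers and 331, 199 and 293 CPM in hep-/- livers, with a log2 fold change of 0.0023 (SE 0.24; adjusted p = 0.996) whose sign turned in 8 of 19 alternatives. The iron-sulfur subunit *Sdhb* (-0.15; adjusted p = 0.668) and the anchor *Sdhc* (-0.17; adjusted p = 0.638) were not called by edgeR with Benjamini-Hochberg adjustment. *Dld*, the dehydrogenase shared by several ketoacid complexes, had -0.70 (adjusted p = 0.0868, same test).

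Counting the other cycle enzymes together with the genes that bring carbon in, take it out or assemble and parallel the enzymes, 16 of 55 fell and none rose, or 29.1%, with a median log2 fold change of -0.48. Beside this, 7.83% of all genes and 15.6% of those expressed at least as highly as the lowest member were called lower. Of the 16 calls 7 were kept in every analysis that left out a liver, those of *Sdha*, *Pcx*, *Got2*, *Pcca*, *Pccb*, *Acly* and *Idh2*. The other 9 were lost at least once, and 7 of the 55 were called without flox/flox replicate 2, beside 3.16% of all genes called lower. Without flox/flox replicate 3, 8 fell and 1 rose, beside 4.71% lower, without hep-/- replicate 2, 9 fell, beside 3.84%, and without hep-/- replicate 3, 21 fell, beside 7.51%. In these 4 analyses *Suclg1* was called, together with *Mdh2* in the last.

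Where carbon enters from pyruvate, 1 of 7 genes fell, and 2 without hep-/- replicate 3. At 14.3% this is near the 15.6% called lower among genes expressed at least as highly as the lowest member. The gene called over all livers was *Pcx*, pyruvate carboxylase, at 504, 549, 580.5 and 451 CPM in flox/flox livers and 220.0, 167 and 309 CPM in hep-/- livers, with a log2 fold change of -1.17 (SE 0.24; adjusted p = 0.0111, edgeR quasi-likelihood, Benjamini-Hochberg). None of 7 kinases and phosphatases of pyruvate dehydrogenase was called, while 1 rose without flox/flox replicate 3 and 1 fell without hep-/- replicate 3. Where amino acids and propionate enter, 4 of 7 fell, or 57.1%, beside that 15.6% and 7.83% of all genes. With any liver left out 3 or 4 fell, beside 3.16% to 7.51% of all genes. They were *Got2*, the mitochondrial aspartate aminotransferase (-1.19), *Pcca* and *Pccb*, the subunits of propionyl-CoA carboxylase (-1.22 and -1.31), and *Mmut*, methylmalonyl-CoA mutase (-1.09), given as log2 fold changes with edgeR quasi-likelihood, Benjamini-Hochberg adjusted p of 0.00780, 0.00939, 0.00691 and 0.0236. *Pcca*, *Pccb* and *Mmut* act on the route from propionyl-CoA to succinyl-CoA, the substrate of the enzyme that *Suclg1* belongs to. *Mcee*, the epimerase between them, had a log2 fold change of 0.53 and was not called. *Got2* links oxaloacetate to aspartate.

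Among the carriers and cytosolic partners through which intermediates leave, 6 of 13 fell. They were the citrate carrier *Slc25a1* (-0.78), the dicarboxylate carrier *Slc25a10* (-0.66), the aspartate-glutamate carriers *Slc25a12* (-0.84) and *Slc25a13* (-0.98), the cytosolic iron-regulatory enzyme *Aco1* (-0.85) and ATP citrate lyase *Acly* (-1.04), again as log2 fold changes. The count was 1 without flox/flox replicate 2, 2 without flox/flox replicate 3 or hep-/- replicate 2 and 9 without hep-/- replicate 3, and of the 6 only *Acly* kept its call throughout, while 7.83% of all genes were called lower over all livers. Of the mitochondrial NADP enzymes 2 of 4 fell, *Idh2*, the NADP-dependent isocitrate dehydrogenase of the matrix (-1.07), and the transhydrogenase *Nnt* (-0.97). *Nnt* lost its call in 5 of the 7 analyses that left out a liver, among them that without hep-/- replicate 3 (adjusted p = 0.0665, edgeR quasi-likelihood, Benjamini-Hochberg), and *Idh2* was then the only call of the list. The NADP-dependent *Idh2*, at 187, 239, 217 and 242 CPM in flox/flox livers and 98.9, 80.5 and 137 CPM in hep-/- livers, did not overlap between the groups (adjusted p = 0.0116, edgeR quasi-likelihood, Benjamini-Hochberg), whereas *Idh3a* did. None of 9 genes of lipoylation, succinate dehydrogenase assembly and the dehydrogenase adaptor and none of 9 transcriptional regulators of mitochondrial genes was called, with medians of -0.035 and -0.19, except for 2 regulators called lower without flox/flox replicate 1.

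**Figure D5:**
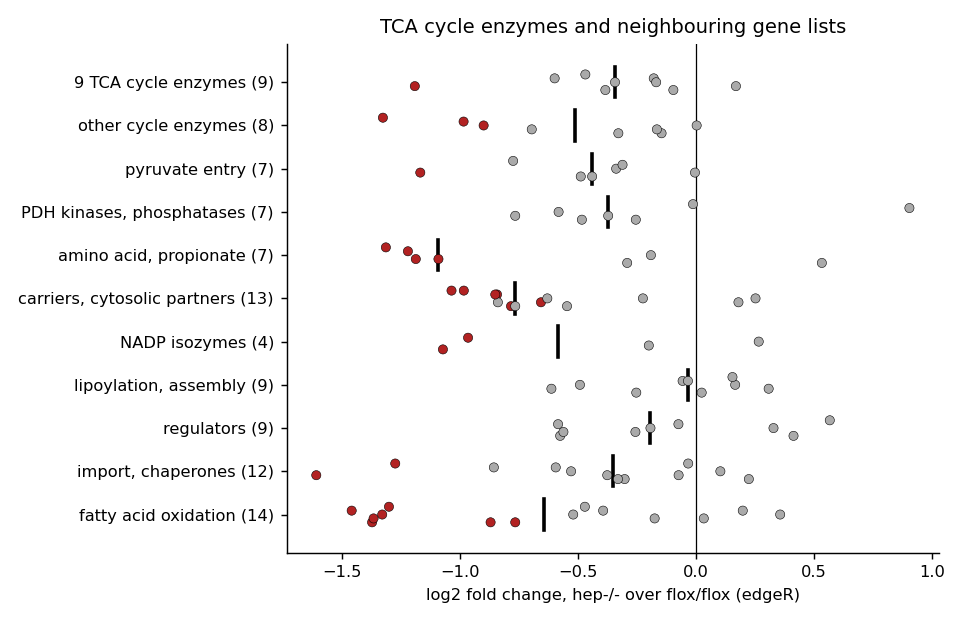
Log2 fold change of hep-/- over flox/flox livers (edgeR) for each gene of the 9 enzymes and of 10 related lists, with the number of genes in brackets, red where called lower, and a bar at each list's median. The 9 enzymes have their median at -0.34 and 1 call, and the lists with the lowest medians are amino acid and propionate carbon at -1.09 and carriers and cytosolic partners at -0.77.

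Other mitochondrial genes were set beside the enzymes by their counts. Of 12 outer membrane, import and chaperone genes 2 fell, the import channel *Timm23* (-1.61) and the chaperone *Hspa9* (-1.27), and the median was -0.35. These 2 are 16.7% of the list, near the 15.6% called lower among genes expressed at least as highly as the lowest member, and the count was 3 without hep-/- replicate 3. The mean log2 CPM of the enzymes exceeded that of these 12 genes by 0.62 ± 0.092 (SD, n = 4) in flox/flox livers and by 0.73 ± 0.15 (SD, n = 3) in hep-/- livers. In mitochondrial fatty acid oxidation 7 of 14 fell, beside that 15.6% and 7.83% of all genes. The largest changes were in *Etfdh* (-1.46) and *Acads* (-1.37), and the median was -0.64. With any liver left out 5 to 7 fell, beside 3.16% to 7.51% of all genes. For nuclear subunits of the respiratory chain the median was 0.15, with 4 higher and 6 lower calls among 82 tested of 83. The lower calls, at 7.32%, are near the 7.83% of all genes, and 8.00% of all genes were called higher. Leaving out hep-/- replicate 3 gave 1 higher and 7 lower calls, beside 7.51% of all genes called lower. With any liver left out the higher calls ran from 0 to 6 and the lower from 1 to 7. All values in this paragraph are log2 fold changes unless named otherwise. Of the 13 mitochondrially encoded genes 12 rose, beside 8.00% of all genes called higher, with a median of 1.92, and 13 rose without hep-/- replicate 3.

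Cell type markers were read in the same way, beside 7.83% of all genes called lower and 8.00% higher. Macrophage markers summed to between 942 and 2198 CPM in flox/flox livers and between 455 and 508 CPM in hep-/- livers, and 5 of 8 fell. The largest part of the sum was *Lyz2*, at means of 1004 and 226 CPM, and *Clec4f*, *Csf1r* and *Timd4* were not called. Of these *Adgre1*, *Cd68* and *Lyz2* kept their calls with any liver left out. *Trem2* lost its call in 4 and *Itgax* in 5 of the 7 analyses, and with single livers left out between 3 and 6 markers fell, with 3 without hep-/- replicate 3 and 6 without hep-/- replicate 2. Hepatocyte markers summed to between 83442 and 122102 CPM in flox/flox livers and between 94122 and 147943 CPM in hep-/- livers, with 1 of 8, *Cyp2e1*, lower (-1.32 as log2 fold change), and 2 of 8 without hep-/- replicate 3. Stellate cell and fibroblast markers ran from 408 to 797 CPM and from 397 to 858 CPM with none of 8 called. Of the endothelial markers 1 of 6 fell, *Kdr*, which lost its call in 5 of the 7 analyses, among them that without hep-/- replicate 3. Without flox/flox replicate 3, whose endothelial markers summed to 291 CPM against 72.1 to 112 CPM in the other flox/flox livers, none of them fell, 1 rose and their median log2 fold change turned from -0.41 to 0.63. None of 5 cholangiocyte or 6 lymphocyte markers was called. Striated muscle markers, of which 2 of 5 were tested, summed to at most 1.41 CPM in flox/flox livers and to between 3.98 and 7.06 CPM in hep-/- livers. Both were called higher, *Tnnt2* also with any liver left out and *Ttn* in 1 of those 7 analyses. The 1 adipocyte marker of 4 that was tested was not called. No list had a marker at 0 in every liver. The part of these markers, and of the mitochondrially encoded share, in the enzymes' values was not tested. In whole liver, fewer cells of a type and less RNA per cell cannot be told apart.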

How the data were processed

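RNA from 7 livers (TRIzol, VAHTS Universal V6 kit) was sequenced as 1 library per liver. The authors deposited counts, whole reads per gene without normalization, and FPKM, which equals the deposited count divided by gene length and library total; both were used. The submitters' processing notes name fastp, HISAT2, HTSeq, DESeq2, R 3.2.0 and GRCm39. Promoter coordinates are from RefSeq on GRCm38.p6.

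Groups follow the labels, and the study describes 4 and 3 mice. Genes were filtered with filterByExpr (minimum count 10, total 15), scaled by TMM and tested with edgeR 4.0.16 (quasi-likelihood, group as only term) in R 4.3.3 with Benjamini-Hochberg adjustment over 15179 genes, after a check on simulated data. The biological coefficient of variation was 0.301. CPM are TMM-normalized. Subunit ratios were compared by two-sided exact permutation tests (scipy 1.17.1). All library pairs differed by more than sampling noise. DESeq2 1.42.0, limma 3.58.1 and other scalings, filters and left-out livers were alternatives.

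Members, lists and tests were chosen with earlier results of these data known. All members and other cycle enzymes are named, apart from a gene that is counted but not reported here; of other pathway lists, called genes (at most 2 for import and chaperone genes and for fatty acid oxidation). Respiratory chain genes are given by counts. The Pearson r of each gene outside the lists with the members' mean standardised log2 CPM gave the 5 most similar genes.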

Additional observations from a re-analysis of the deposited data

Results flagged for a closer look

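*Sucla2* in flox/flox replicate 1 was set apart from the other flox/flox livers, at 84.5 CPM against 115 to 119 CPM in replicates 2 to 4, where the gap to the nearest liver took 0.879 of the range and the critical value for 4 samples is 0.829. It was the only one of 24 groups of values checked, and chance marks about 1 in 20 such groups. None of the 9 enzymes had such a liver in the flox/flox group, and the hep-/- group of 3 is too small for the check.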

How the results depend on the processing

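Of the 9 enzymes 1 was called; library totals without TMM gave 3, limma on log2(FPKM + 1), on log2(FPKM + 0.1) and on every gene above 0 each gave 3, voom with quality weights gave 2, and leaving out single livers gave 1 to 2. The extra calls were *Ogdh* and *Mdh2*, or *Mdh2* alone where 2 were called. On these scales the median of all tested genes itself shifted, by -0.12 without TMM and by -0.16 and -0.20 on FPKM with pseudocounts of 1 and 0.1. Relative to it the median of the enzymes was -0.35, -0.31 and -0.28. With limma on every gene above 0 the shift was -0.069 and the enzymes' median relative to it was -0.40. Of all calls 50.5% were higher with TMM, but 26.7% without it and 24.5%, 23.6% and 18.2% in the 3 FPKM analyses. The enzymes' median log2 fold change stayed between -0.48 and -0.27 in all 19 alternatives. The log2 differences of the 3 subunit ratios kept their sign in their 9 alternatives. They ran from -0.67 to -0.34 for *Idh3b* to *Idh3a*, -0.64 to -0.087 for *Idh3g* to *Idh3a* and 0.014 to 0.15 for *Dlst* to *Ogdh*. Their exact test cannot pass the threshold, either with all livers or with a liver left out.

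Of the 55 other pathway genes 16 were called, and 7 to 21 when single livers were left out. Of all genes 2404 were called, 1330 with limma on every gene above 0, and 885 to 2396 when single livers were left out, with 885 without flox/flox replicate 2, 1405 without flox/flox replicate 3, 1552 without flox/flox replicate 4 and 1199 without hep-/- replicate 2. Same-numbered livers had correlations of -0.60, -0.27 and 0.14 in their deviations from the group means over 5000 genes. The highest of any pair was 0.70, between flox/flox replicate 1 and hep-/- replicate 2. With so few livers this cannot decide whether the numbers pair them, and the labels do not say so. With the replicate number as a block, over 6 livers, 1 enzyme, 9 of the other pathway genes and 1225 of all genes were called. The causes were not tested.

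The sign turned without hep-/- replicate 2 for *Cs* (0.062, range over left-out livers -0.31 to 0.062) and *Sdhc* (0.028, range -0.33 to 0.028) and for *Idh3a* on log2(FPKM + 1) with either filter (-0.000781), on log2(FPKM + 0.1) (-0.00143) and without hep-/- replicate 3 (-0.025, range -0.025 to 0.40). For *Suclg2* it turned without TMM (-0.13), with a filter of 1 count (-0.016), in the FPKM analyses (-0.13 each) and without flox/flox replicate 1 (-0.12), hep-/- replicate 1 (-0.17) or hep-/- replicate 3 (-0.055), over a range from -0.17 to 0.19. The lowest value of any enzyme, 53.7 CPM, is far above the 0.0987 CPM that 3 counts stand for.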

Other observations

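Outside the lists, the genes whose profile over the 7 livers was most like the mean standardised log2 CPM of the 9 enzymes were *Ppa1*, an inorganic pyrophosphatase (Pearson r = 0.992), *Psmd11*, a proteasome subunit (0.990), *Gcat*, which works in threonine breakdown (0.988), *Adrm1*, a ubiquitin receptor of the proteasome (0.988), and *Fads1*, a fatty acid desaturase (0.986). They were picked from all tested genes for this likeness, so the coefficients are a description over 7 livers that share library and scaling. As in most members, hep-/- replicate 2 was the lowest liver for each of the 5, and none was called, with log2 fold changes from -0.66 to -0.32. *Ppa1*, for example, was at 187, 224, 173 and 248 CPM in flox/flox livers and at 109, 81.9 and 203 CPM in hep-/- livers (adjusted p = 0.138, edgeR quasi-likelihood, Benjamini-Hochberg).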
